A study of Mus musculus with 2 samples.

Results

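The genes described here are 8 genes of cholesterol synthesis and its control, which are known targets of the transcription factor SREBP2. They are Hmgcs1, Idi1, Fdps, Fdft1, Sqle, Lss, Cyp51 and Insig1, and they were chosen by gene name from a table of 54532 genes. All 8 names were found once. Their messenger RNA levels were compared between 2 libraries labelled as bone marrow niche cells, the stromal cells and their neighbours that feed and hold blood-forming cells. The highest summed markers in both libraries were those of red cell precursors and neutrophils, and stromal markers were mostly low or absent in aGVHD_V, as given at the end. BMT and aGVHD_V name both the groups and their libraries. Both groups were female CB6F1 recipient mice, which received 2 doses of 4.0 Gy of radiation and, 4 hours later, marrow cells from B6.SJL donors that carry CD45.1. The BMT group received that marrow graft alone. Mice of the aGVHD_V group were also given spleen cells of female C57BL/6 mice, to bring on aGVHD, that is acute graft-versus-host disease, an attack of donor T cells on the tissues of the recipient. Per the labels' protocols, living cells were sorted after removal of those that carry CD45, lineage antigens or CD71, with Calcein AM and DAPI to tell living from dead. The meaning of the V, the age of the mice and the number of mice behind each library were not stated in the sources at hand. The series title speaks of single cells, but the table holds 1 value per gene and library. There is thus 1 library per group, no difference below has a replicate check, and no p-value is given.

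Cells make cholesterol from acetyl-CoA through mevalonate, which is turned into isoprenoid units that are joined to farnesyl diphosphate, then to squalene, and then closed into the sterol lanosterol. SREBP2 is held in the endoplasmic reticulum by SCAP and the INSIG proteins while sterols are plentiful. When sterols run low it travels to the Golgi, is cut by proteases and switches on the genes of the pathway, of cholesterol uptake and of its own inhibitor INSIG1. Dividing cells, among them blood cell precursors, need cholesterol for new membranes, and the pathway also supplies the lipids that anchor small GTPases to membranes.

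Stretches of 300 bases around the start of transcription (250 before it and 50 after it) were at hand from RefSeq (GRCm38.p6) for 5 of the 8 genes, namely Hmgcs1, Idi1, Lss, Cyp51 and Insig1. Those of Hmgcs1, Cyp51, Idi1 and Insig1 are shown, because SREBP2 acts on such promoters together with the factors NF-Y and Sp1, and that of Lss was searched but is not printed. Capitals mark matches to the sterol element letters TCACNCCAC, to the looser TCACNNCA, and to the NF-Y letters CCAAT, on either strand, so that a reverse match reads ATTGG. The windows are chr13:119690101-119690400 on the plus strand for Hmgcs1, chr5:4104648-4104947 on the minus strand for Cyp51, chr13:8885356-8885655 on the plus strand for Idi1 and chr5:28071162-28071461 on the plus strand for Insig1.
Hmgcs1: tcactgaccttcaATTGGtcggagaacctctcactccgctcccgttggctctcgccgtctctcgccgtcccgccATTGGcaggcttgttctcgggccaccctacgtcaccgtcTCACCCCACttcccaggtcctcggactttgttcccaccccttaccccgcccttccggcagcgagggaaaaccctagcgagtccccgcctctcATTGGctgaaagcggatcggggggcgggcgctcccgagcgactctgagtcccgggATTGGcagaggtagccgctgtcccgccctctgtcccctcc
Cyp51: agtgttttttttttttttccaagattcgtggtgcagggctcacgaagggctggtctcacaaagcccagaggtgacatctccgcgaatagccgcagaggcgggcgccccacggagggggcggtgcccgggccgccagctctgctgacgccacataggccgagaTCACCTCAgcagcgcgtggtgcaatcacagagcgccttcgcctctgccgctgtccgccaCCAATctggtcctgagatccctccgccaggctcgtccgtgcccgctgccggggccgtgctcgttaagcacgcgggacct
Idi1: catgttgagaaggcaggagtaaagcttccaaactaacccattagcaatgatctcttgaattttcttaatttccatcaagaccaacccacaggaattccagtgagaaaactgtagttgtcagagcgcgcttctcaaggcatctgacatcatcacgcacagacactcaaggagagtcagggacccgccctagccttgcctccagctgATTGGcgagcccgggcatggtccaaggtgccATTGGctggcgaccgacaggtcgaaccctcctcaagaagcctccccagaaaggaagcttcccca
Insig1: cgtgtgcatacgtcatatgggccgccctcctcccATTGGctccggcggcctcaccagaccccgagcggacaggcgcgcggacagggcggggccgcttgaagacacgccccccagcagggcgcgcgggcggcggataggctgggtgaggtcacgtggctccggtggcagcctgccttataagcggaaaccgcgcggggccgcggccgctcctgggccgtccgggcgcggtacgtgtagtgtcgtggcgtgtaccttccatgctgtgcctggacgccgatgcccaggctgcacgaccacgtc

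Hmgcs1 had the sole match to TCACNCCAC among the 5 windows, beginning 137 bases before the start, and the looser form matched at the same place. Of all 32851 windows in the RefSeq table, 1.24% held the strict letters. The looser letters also matched in Cyp51, beginning 88 bases before the start, and in 13.8% of all windows. CCAAT was found in 5 of 5 windows against 37.4% of all windows, with 4 matches in Hmgcs1. The Sp1 letters GGGCGG, which are not in capitals, were likewise found in 5 of 5 windows against 35.7%. Insig1 also held CACGTG, the E-box that SREBP1 can bind, as did 7.15% of all windows. These genes were picked as SREBP2 targets, so the matches describe them and are not independent evidence. A match is neither a proven site nor a cause.

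Levels are given in the authors' deposited unit, FPKM, in which fragments are scaled to the length of the gene and to a library size. The library sizes behind the deposited values are not plain read totals, as given under the processing. FPKM times gene length came in whole steps, which gave back the number of reads of each gene. The libraries held 10869191 (BMT) and 11299834 (aGVHD_V) such reads. A gene with reads most often had 14 of them in the first and 44 in the second. An interval was therefore computed in a widened form, in which each such group of reads counts once, and in a read-wise form, in which every read counts. Both are exact 95% intervals, cover counting error only and say nothing of variation between mice. A count of 0 allows up to 3 counts, which in the widened form is 42 reads in BMT and 132 reads in aGVHD_V. Folds are also given for some genes under this limit in aGVHD_V, and these are to be read with their intervals.

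The 8 genes were expressed at low to moderate levels and none differed between the libraries beyond the widened counting error. For Hmgcs1, Idi1, Lss and Fdps the widened form could not show a lower level in aGVHD_V, as given below. In such bulk samples fewer cells of a type and less RNA per cell cannot be told apart. Their FPKM ran from 0.333 to 13.8 in BMT and from 0 to 10.9 in aGVHD_V. On the scale of log2(FPKM + 1), 6 of the 8 were lower in aGVHD_V and 2 were higher, and their median difference was -0.36. The median over all 12942 genes that reached an FPKM of 1 in at least 1 library (measured genes) was -0.07, and over the 9777 of these with a higher FPKM under 20 it was -0.21. Of the 12942 genes 6975 were lower in aGVHD_V, and of the 9777 genes 5830 were. All members but Fdps were measured genes, and 5 of these 7 were lower, with a median of -0.31. A difference of 1 or more on this scale, which is at least 2-fold, was reached by 1 member, Idi1, in the lower direction. Among all measured genes 19.4% passed this limit on the lower side and 8.65% on the higher side, and for those under an FPKM of 20 the shares were 24.1% and 9.01%. The members' count depends on the setting. It was 0 with a pseudocount of 5, which ends the call of Idi1, and 3 with a pseudocount of 0.1 or equal FPKM sums. Hmgcs1 reached the limit in 4 of its 11 settings. In the widened form 0 of the 8 intervals of the ratio lay wholly on 1 side of equality, against 4.71% of all measured genes on the lower side and 6.04% on the higher side, or 4.53% and 1.74% of those under an FPKM of 20. For Hmgcs1, Idi1, Lss and Fdps, with 190, 188, 191 and 17 reads in BMT, a lower result was not possible in this form. Even with no reads in aGVHD_V their widened intervals would have held equality. In the read-wise form 6 of the 8 intervals lay on the lower side, 1 on the higher side and 1 held equality. The 6 include Fdps, which had 17 reads in BMT and none in aGVHD_V. The read-wise share of all measured genes was not computed, so these counts have no background and are not a result about the members. Whether the groups of reads are copies of 1 molecule was not tested, so the answer for single members depends on that assumption.

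**Figure D1:**
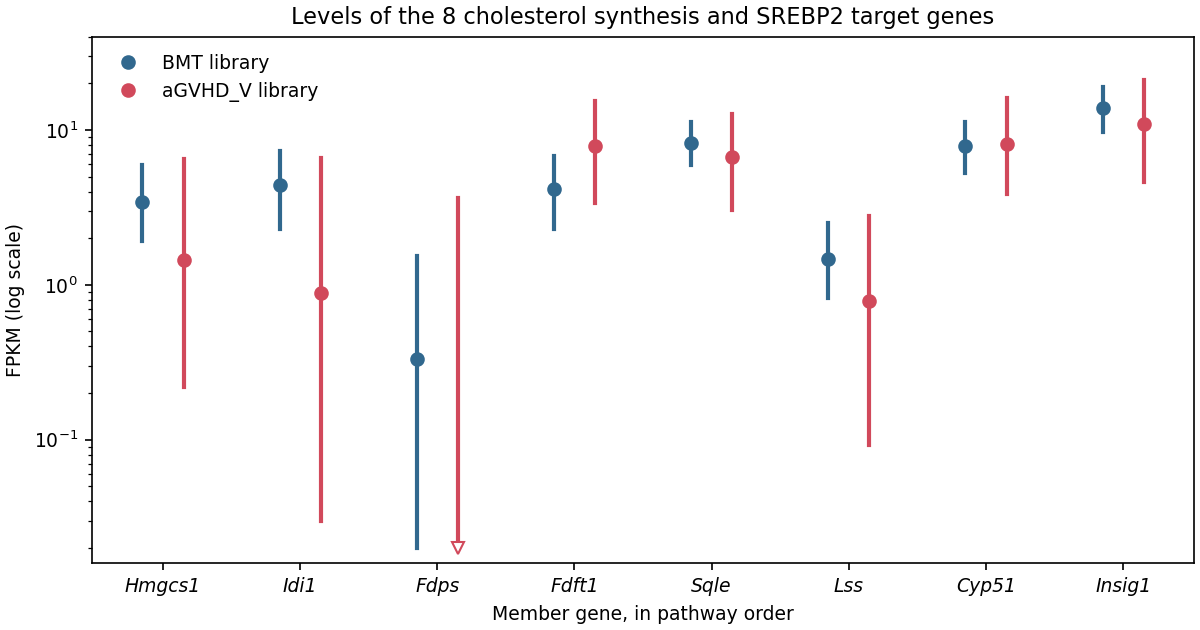
FPKM (log axis) of the 8 genes in pathway order, with Insig1 last. Circles are the values of the BMT library (blue) and the aGVHD_V library (red), bars are widened exact 95% counting intervals, cut at the lower edge, and the open triangle marks Fdps, which had no reads in aGVHD_V. The bars of the libraries overlap for every gene.

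Taken as a sum, the 8 genes had 2288 reads in BMT and 1691 in aGVHD_V, or 0.0211% and 0.0150% of all reads. Their summed FPKM was 43.6 and 36.8, which is 1.19-fold lower in aGVHD_V. The widened interval of that ratio, computed from the summed reads, was 0.839 to 1.76 and the read-wise interval was 1.12 to 1.27. Both intervals hold for the authors' library sizes. The summed level was 1.40-fold lower when all recovered reads set the library size and 1.77-fold lower with equal FPKM sums.

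The first committed steps make mevalonate. Hmgcs1 encodes the cytosolic HMG-CoA synthase, which joins acetoacetyl-CoA and acetyl-CoA. The gene (ENSMUSG00000093930) lies on chromosome 13 from 119690379 to 119708260 on the plus strand of GRCm38. It had an FPKM of 3.41 on 190 reads in BMT and of 1.45 on 71 reads in aGVHD_V. The aGVHD_V value was 2.35-fold lower, with a widened interval from 0.450 to 17.8 and a read-wise interval from 1.78 to 3.14. On the log2(FPKM + 1) scale the difference was -0.85, just inside the 2-fold limit, since the added 1 shrinks differences between low values. The value was lower in aGVHD_V, on too few reads for the widened interval to leave out equality.

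Idi1 and Fdps build the isoprenoid chain. Idi1 encodes the isomerase that interconverts the isoprenoid building blocks (ENSMUSG00000058258, chromosome 13, 8885501 to 8892451, plus strand). It had an FPKM of 4.42 on 188 reads in BMT and of 0.883 on 33 reads in aGVHD_V, the widest gap among the members. The value was 5.01-fold lower, with a widened interval of 0.546 to 155 and a read-wise interval of 3.45 to 7.49. Its 33 reads are fewer than the 44 that a detected gene most often had in that library, so in the widened form the difference rests on 1 count. Idi2, the neighbouring paralog, had no reads in either library.

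Fdps encodes farnesyl diphosphate synthase, which makes the branch point of sterols and isoprenoids (ENSMUSG00000059743, chromosome 3, 89093588 to 89101959, minus strand). It had 17 reads (FPKM 0.333) in BMT and no reads in aGVHD_V. Both values are under the limit that a count of 0 allows, which for this gene is an FPKM of 0.823 and of 2.94, so no fold is given. The low value of this gene stands beside a property of the annotation. Of the 50-base stretches of its longest coding transcript, 86.4% also occur in transcripts of other annotated genes. Among these is Gm43738, a protein-coding gene on the same strand whose exons cover 1124 bases of those of Fdps, and which was listed with no reads in either library. For the other members this share ran from 0% for Sqle to 30.7% for Fdft1. No source used here says how reads that fit several genes were assigned, and the part of this sharing in the value of Fdps was not tested.

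Fdft1 and Sqle make and oxidise squalene. Fdft1 encodes squalene synthase, the first enzyme of the pathway that serves sterols alone (ENSMUSG00000021273, chromosome 14, 63145150 to 63179578, minus strand). It was at an FPKM of 4.16 on 213 reads in BMT and of 7.88 on 355 reads in aGVHD_V. That is 1.90-fold higher, with a widened interval of 0.700 to 4.79 and a read-wise interval of 1.60 to 2.26. Fdft1 was the sole member whose read-wise interval lay above equality. Its exons overlap those of Ctsb, a lysosomal protease gene on the opposite strand, over 774 bases or 18.3% of the exon bases of Fdft1. Ctsb had 6917 and 6721 reads, and without knowledge of the strand setting reads of that stretch cannot be told apart.

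Sqle encodes squalene epoxidase, a rate-limiting enzyme of the pathway whose protein is degraded when cholesterol is abundant (ENSMUSG00000022351, chromosome 15, 59315077 to 59331192, plus strand). It had an FPKM of 8.22 on 553 reads in BMT and of 6.73 on 398 reads in aGVHD_V. The ratio was 1.22-fold lower, with a widened interval from 0.594 to 2.91 and a read-wise interval from 1.07 to 1.39. Sqle had the most reads of all members in both libraries, which makes its value the most precise of the group together with those of Insig1 and Cyp51.

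Lss and Cyp51 form and trim the sterol ring system. Lss encodes lanosterol synthase, which closes the rings (ENSMUSG00000033105, chromosome 10, 76531588 to 76557138, plus strand). It had an FPKM of 1.46 on 191 reads against 0.791 on 91 reads, 1.85-fold lower with a widened interval of 0.450 to 17.8 and a read-wise interval of 1.43 to 2.40. Cyp51 encodes the demethylase that acts on lanosterol (ENSMUSG00000001467, chromosome 5, 4081145 to 4104746, minus strand). Its values were nearly equal, at an FPKM of 7.83 on 419 reads in BMT and 8.16 on 384 reads in aGVHD_V. The ratio was 1.04 with a widened interval of 0.448 to 2.32 and a read-wise interval of 0.905 to 1.20. The sign of this small difference turned in 4 of 12 alternative settings, all of them scalings, and ran from -0.49 to 0.06 on the log2 scale.

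Insig1 is the feedback arm. It encodes a protein of the endoplasmic reticulum that retains SCAP and SREBP2, and is itself switched on by SREBP2 (ENSMUSG00000045294, chromosome 5, 28071363 to 28078662, plus strand). It had an FPKM of 13.8 on 517 reads in BMT and of 10.9 on 359 reads in aGVHD_V, the highest level of the 8 genes in both. The aGVHD_V value was 1.27-fold lower, with a widened interval of 0.593 to 3.22 and a read-wise interval of 1.10 to 1.45.

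The order of the levels was similar at its ends. By FPKM in BMT it ran Insig1, Sqle, Cyp51, Idi1, Fdft1, Hmgcs1, Lss, Fdps. Of the 7 pairs of neighbours 2 differed beyond the widened counting error, Insig1 over Sqle by 1.68-fold (1.03 to 2.66) and Hmgcs1 over Lss by 2.34-fold (1.04 to 5.31). In the aGVHD_V library the order was Insig1, Cyp51, Fdft1, Sqle, Hmgcs1, Idi1, Lss, Fdps, and 0 of 7 neighbours differed. These levels rest on the deposited lengths, which equal the union of all annotated exons for 98.0% of the genes matched to GENCODE release M21. With the length of the longest coding transcript, 2758 bases in place of 5546, Sqle came to an FPKM of 16.5 and 13.5 in the BMT and aGVHD_V libraries, above Insig1 at 15.8 and 12.5. Lss came to 3.37 and 1.83 in the same way, on 4667 in place of 10787 bases. The first place thus depends on the length used.

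**Figure D2:**
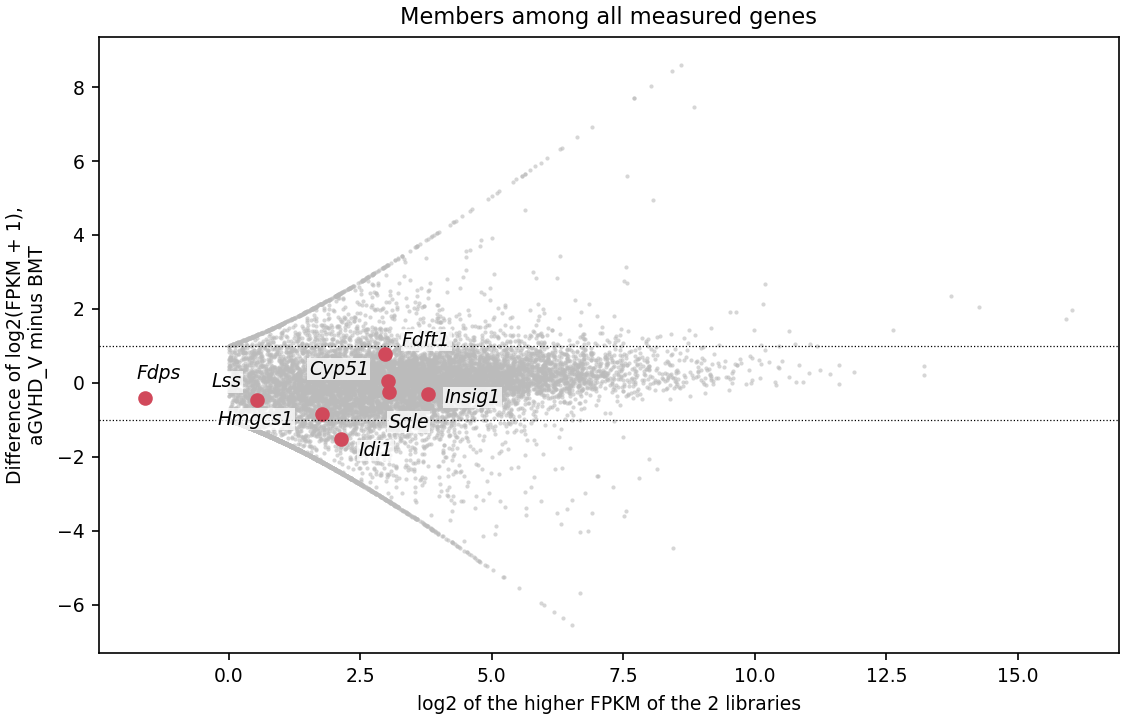
Difference of log2(FPKM + 1), aGVHD_V minus BMT, against log2 of the higher FPKM, for 12942 measured genes (grey) and the 8 members (red). Dotted lines mark 2-fold, and the curved edges are genes without reads in 1 library. Idi1 (-1.53) lies beyond the lower line and the other members lie between the lines.

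The rest of the sterol pathway was measured with 15 further enzymes, of which 13 were measured genes. Of these 12 lay within 2-fold and 1 was lower, and their median difference was 0.03, which turned below 0 in all scalings but those by upper quartile and median gene. It was also below 0, at -0.01, without a filter on low values and with the length of the longest coding transcript. Together with the 7 member enzymes, 17 of 19 measured enzymes lay within 2-fold and 2 were lower. All such counts are on the log2(FPKM + 1) scale, so genes of low level can be counted as within 2-fold at a larger plain ratio. Hmgcs1, at 2.35-fold lower, is such a gene. Over all measured genes 9311 of 12942 lay within 2-fold, 19.4% were lower and 8.65% were higher. These shares are the background of this and the following lists. Msmo1, a methylsterol oxidase, went without any read in aGVHD_V against 221 reads (FPKM 2.97) in BMT, and the widened interval of the fold by which it was lower starts at 1.08. Lbr, a sterol reductase that is also the lamin B receptor of the nuclear envelope, was 1.53-fold higher (70.6 against 108, widened interval 1.22 to 1.89). These were the enzymes whose widened intervals left out equality. Pmvk, phosphomevalonate kinase, had an FPKM of 11.5 and 19.9, and Sc5d, a sterol desaturase, of 3.90 and 2.45. The widened intervals of Pmvk and Sc5d held equality, while their read-wise intervals left it out.

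**Figure D3:**
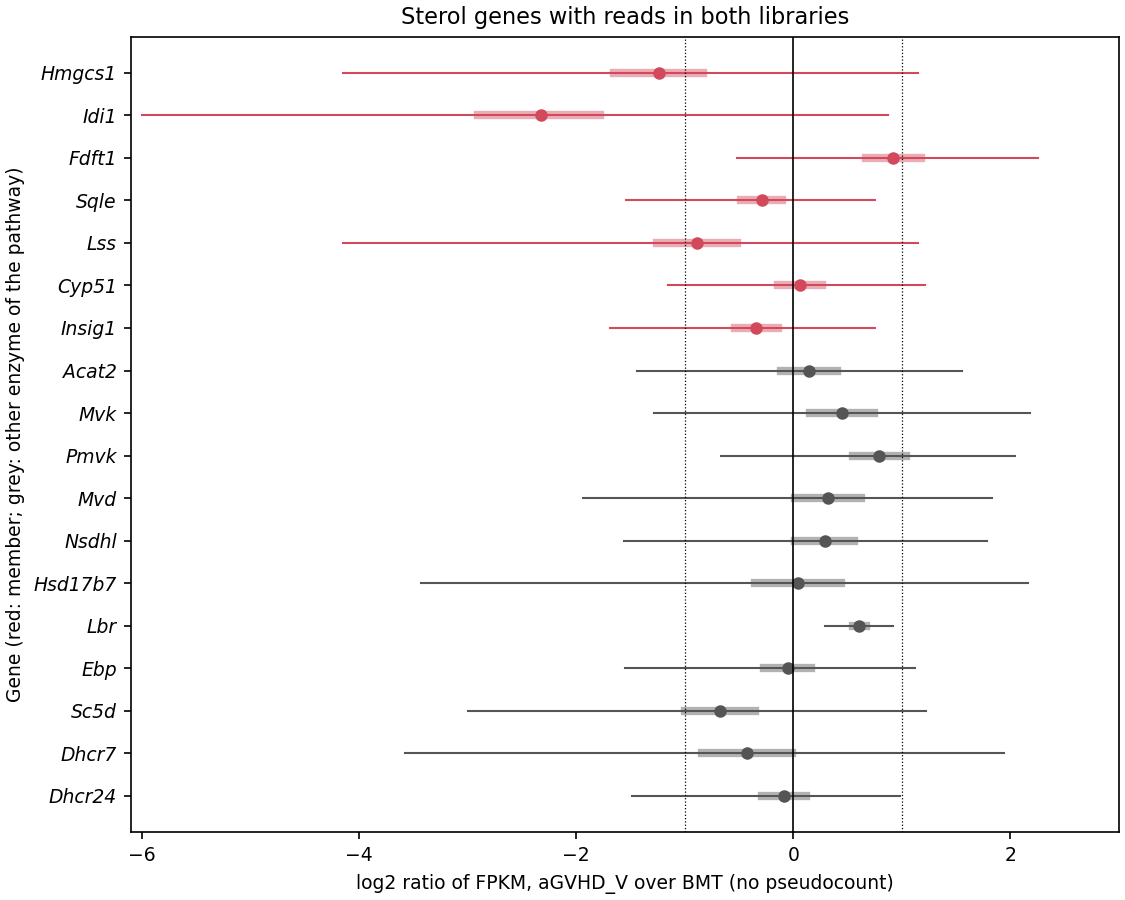
log2 ratio of FPKM, aGVHD_V over BMT, for the members (red) and other enzymes of the pathway (grey) with reads in both libraries. Thin bars are widened and thick bars read-wise exact 95% intervals of counting error, the thin bar of Idi1 is cut at the left, and dotted lines mark 2-fold. Apart from Lbr every thin bar crosses 0.

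Most genes that control SREBP2 lay within 2-fold. Srebf2, the gene of SREBP2, had an FPKM of 21.8 on 1897 reads in BMT and of 26.9 on 2064 reads in aGVHD_V, a ratio of 1.24 (widened interval 0.867 to 1.73). Srebf1, which encodes the related SREBP1 forms, was at 23.8 against 21.2 (1.12-fold lower, 0.740 to 1.74). The escort gene Scap was at 7.57 against 4.84 (1.56-fold lower, 0.740 to 3.53). Insig2, the paralog of Insig1 that SREBP2 does not drive, had an FPKM of 4.94 on 208 reads against 0.432 on 16 reads. The second value is under the limit that a count of 0 allows, an FPKM of 3.56 for this gene, so no fold is given. The widened interval of the fold by which it was lower starts at 1.003 and has no upper bound. Insig1 and Insig2 thus had values of 13.8 and 4.94 in BMT and of 10.9 and 0.432 in aGVHD_V, and the difference between the genes in this respect was not tested. Of the 6 genes of this list 5 were measured, 1 was lower and 4 lay within 2-fold, with a median over the measured genes of -0.16.

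Genes that degrade sterol enzymes and INSIG proteins all lay within 2-fold, 8 of 8, with a median of 0.13 that turned below 0 in 4 scalings (-0.43 to -0.03). March6, the ubiquitin ligase of squalene epoxidase, was 1.53-fold higher, at an FPKM of 15.7 against 24.0, with a widened interval of 1.08 to 2.11. The segregase gene Vcp was at 71.7 against 66.9, and the ligase genes Syvn1 and Rnf139 were at 18.1 against 11.6 and at 9.05 against 11.9. The widened intervals of these last 3 genes held equality.

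Uptake and transport of cholesterol gave 1 lower gene and 7 within 2-fold among 8 measured of 10, with a median of -0.08. Stard4, a sterol carrier, was at 7.51 against 5.94, and Tmem97, a binding partner of the Niemann-Pick protein NPC1, was at 15.9 against 12.7. Lipa, the lysosomal lipase that frees cholesterol from lipoproteins, was at 10.8 against 4.17, 2.59-fold lower with a widened interval of 0.806 to 13.4. Npc2, a lysosomal cholesterol carrier, was at 32.5 against 30.9, and Scarb1, the HDL receptor, at 9.84 against 14.0. All 10 widened intervals of the list held equality.

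The isoprenoid branch, which leaves the pathway at farnesyl diphosphate, had 13 of 14 genes within 2-fold, beside 9311 of 12942 measured genes, and a median of -0.08. The exception was Pggt1b, the beta subunit of the enzyme that attaches geranylgeranyl lipids to proteins, which had an FPKM of 1.93 on 64 reads against 12.2 on 356 reads. It was 6.33-fold higher in aGVHD_V, with a widened interval of 1.65 to 22.2. Fntb, the beta subunit of farnesyltransferase, was at 8.54 against 14.1, and Rabggtb, that of the Rab enzyme, at 46.8 against 42.0. Pdss1 and Pdss2, which make the tail of coenzyme Q, were at 3.59 against 2.05 and at 1.55 against 0.802. The widened intervals of these last 4 genes held equality, while their read-wise intervals left it out.

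Fatty acid synthesis, driven mainly by SREBP1, had 11 of 13 genes within 2-fold, 2 lower and a median of -0.15. Of all measured genes 19.4% were lower. Scd1, a stearoyl-CoA desaturase, had an FPKM of 10.7 on 627 reads against 1.30 on 67 reads, 8.23-fold lower with a widened interval of 1.64 to 53.6. The aGVHD_V value of Scd1 is under the limit that a count of 0 allows, an FPKM of 2.56 for this gene. Me1, malic enzyme, had 77 reads, all of them in BMT. Acly, ATP citrate lyase, was at 44.0 against 39.5, Acaca, acetyl-CoA carboxylase, at 2.32 against 1.12, and the phosphatidate phosphatase gene Lpin1 at 4.33 against 6.48. Scd1 was the sole gene of this list whose widened interval left out equality.

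The list of cholesterol efflux, storage and the LXR factors holds 11 genes, of which 10 were measured. Of these 5 passed the 2-fold limit on the lower side, against 19.4% of all measured genes and 24.1% of those under an FPKM of 20, and the median was -0.92. The stromal markers were lower in the same library, and their part in these values was not tested. With a minimum FPKM of 5 in place of 1 the median of the list was -0.08. Apoe, an apolipoprotein that carries cholesterol away from cells, had an FPKM of 224 on 5801 reads against 36.8 on 838 reads. It was 6.09-fold lower, with a widened interval of 3.85 to 10.2, the sole one of the list that left out equality. Abca1, the cholesterol exporter, was at 2.22 against 0.362 (6.13-fold lower, 0.895 to 232), and Nr1h3, which encodes LXR alpha, at 3.70 against 1.12 (3.31-fold lower, 0.300 to 99.3). Cyp27a1, a sterol hydroxylase, had 33 reads in BMT alone. Soat2, which stores cholesterol as esters, was at 7.49 against 3.01 (2.49-fold lower, 0.450 to 17.8). The aGVHD_V values of Abca1, Nr1h3 and Soat2 are under the limit that a count of 0 allows, an FPKM of 1.19, 4.92 and 5.59 for these genes. The medians over the measured genes of this list and over the 7 measured members were -0.92 and -0.31, and their difference was not tested.

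**Figure D4:**
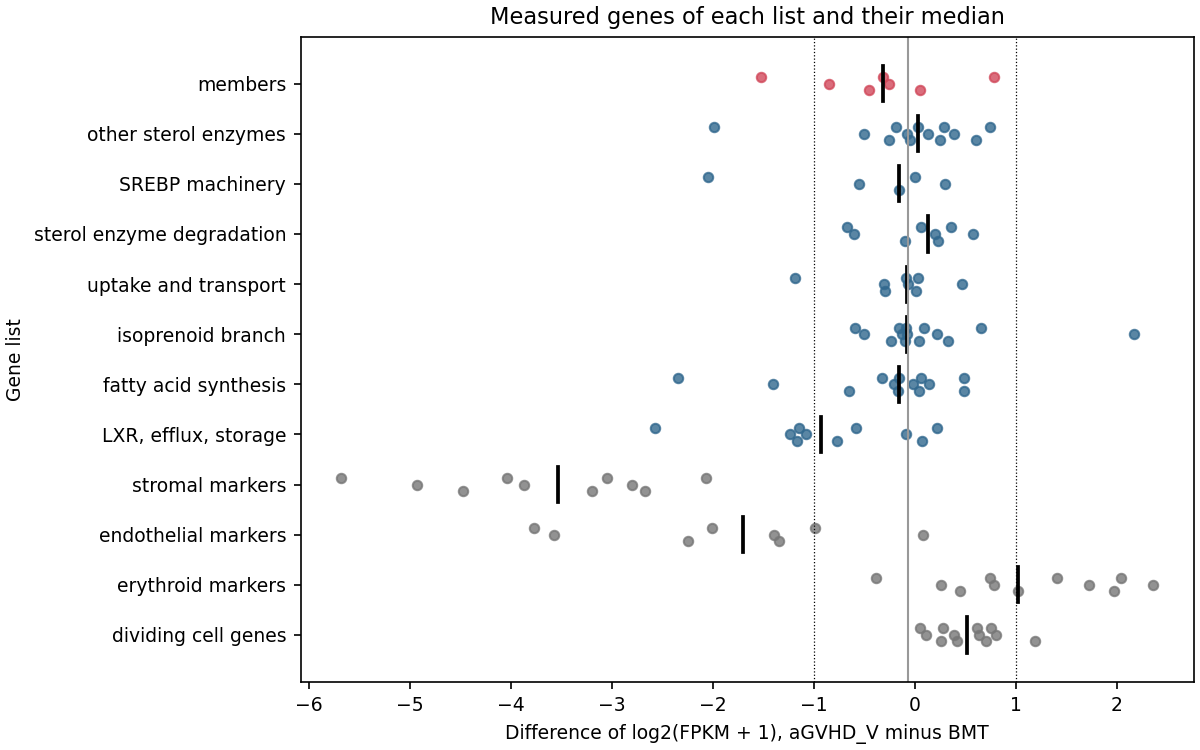
Difference of log2(FPKM + 1), aGVHD_V minus BMT, of the measured genes of each list (points) with the list's median (black bar). Members are red, other sterol and lipid lists blue and cell markers grey, the grey line is the median of all measured genes (-0.07), and dotted lines mark 2-fold. Stromal markers lie at -2.07 or below, whereas the measured members lie between -1.53 and 0.78.

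Marker genes of several cell types differed in level between the libraries. All 10 stromal markers passed the 2-fold limit on the lower side, and their summed FPKM was 704 in BMT and 30.5 in aGVHD_V, where Lepr had no reads. Of all measured genes 19.4% passed this limit on the lower side and 8.65% on the higher side. Markers of red cell precursors and neutrophils, cells that the sort was to remove, had the highest sums in both libraries, and Tfrc, the gene of CD71, was at an FPKM of 160.1 in BMT and 269 in aGVHD_V. The sum of 8 endothelial markers was 77.9 and 14.6, with 4 of them, Cdh5 and Cldn5 included, at 0 in aGVHD_V. That of 10 B-lineage markers was 88.3 and 1.50, with 8 at 0. A value of 0 in aGVHD_V allows up to 132 reads and is not absence, and that library had reads for 12310 genes against 15477 in BMT. The widened interval lay below equality for 6 of the 10 B-lineage and 5 of the 8 endothelial markers, against 4.71% of all measured genes. The 11 erythroid markers found had sums of 44847 and 165724, with 6 higher and none lower, and the 8 megakaryocyte markers of 83.4 and 281. The 12 genes of dividing cells, led by Pcna, had sums of 1057 and 1611, and 1 of them passed the 2-fold limit on the higher side. Sums of the remaining lists were 15078 and 20025 for 10 neutrophil, 180 and 160 for 9 macrophage, 53.3 and 39.6 for 5 plasma cell and 12.8 and 24.5 for 6 T cell markers. Of single markers, the stromal chemokines Cxcl12 and Cxcl14 had an FPKM of 346 against 14.6 and of 103 against 1.03, and the endothelial genes Plvap and Cldn5 of 32.0 against 7.17 and of 12.7 against 0. The globin genes Hba-a1 and Hba-a2 were at 17046 against 67186 and at 2657 against 13661, and the platelet factor gene Pf4 at 28.4 against 191. Pcna and Birc5, genes of DNA replication and mitosis, were at 247 against 377 and at 47.7 against 109.9. The neutrophil granule and calgranulin genes Camp and S100a9 were at 1170.2 against 2335 and at 6959 against 9474, and the macrophage genes C1qa and Mrc1 at 58.1 against 75.2 and at 8.22 against 2.83. The B cell receptor gene Cd79b was at 23.0 against 0, the plasma cell genes Xbp1 and Jchain at 39.2 against 24.3 and at 1.70 against 10.5, and the T cell receptor genes Cd3g and Cd3d at 4.74 against 7.09 and at 0.954 against 6.77. Both values of Cd3d, on 21 and 131 reads, are under the limit that a count of 0 allows. The widened intervals of Cd3g (0.514 to 4.65) and Cd3d (0.614 to 64.2) held equality. Beside these marker values, the summed FPKM of the 8 sterol genes was 1.19-fold lower in aGVHD_V. From which cells their transcripts came, and the part of the cell make-up in their values, was not tested.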

How the data were processed

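RNA was sequenced in 1 BMT and 1 aGVHD_V library, and the groups were taken from the titles. The authors deposited FPKM per gene, per the file headers, with gene lengths. Per the submitters' processing notes, edgeR 3.18.1, GRCm38 and mm10 were used. The aligner, the counter and the strand setting were not given in the sources used here. Beside these, 1 column of sample values matched no label and was left aside. Of the 54532 identifiers, 54409 were found in GENCODE M21 (GRCm38) and 98.3% of these had the same start and end.

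FPKM times length divided by the smallest step gave whole reads for 100% of values above 0 (tolerance 0.05), and these are used for intervals alone, not for a count test. From the steps, the authors' library sizes were 12127105 for BMT and 10661688 for aGVHD_V. These are 1.116 and 0.944 times the recovered reads, so the size of aGVHD_V is below the reads it would have to hold. The sizes are thus not plain read totals, and the deposited values may already hold a scaling between the libraries. How the sizes were set was not tested. Ratios of single genes have no pseudocount. Differences are of log2(FPKM + 1), which understates the change of low genes. Measured genes reached an FPKM of 1 in either library. Ratio intervals are Clopper-Pearson, level intervals Poisson, in Python 3.11.15 with SciPy 1.17.1. The steps were run on simulated data whose reads were drawn in groups of the same modal sizes. Such data cannot check whether a group of reads comes from 1 molecule. Of 175 list entries 174 were found, 1 of them, March6, by its identifier, as the table gives its name in another form. Ahsp was not analysed here. From each pathway list the text names the gene with the highest mean FPKM and up to 4 measured genes with the largest difference, and always Srebf1, Srebf2, Scap and Insig2. Some genes that the rule also names are not reported here. From each cell list it names the gene with the highest mean FPKM and that with the largest difference. Soat2, Idi2, Lepr, Cdh5 and Tfrc were named after their values were seen. The members, lists and settings were chosen with earlier results of these data known. 9 alternative settings were planned and 3 were added after seeing the data. The replicate structure (1 library per group) allows no test, so p-values are absent.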

Additional observations from a re-analysis of the deposited data

How the results depend on the processing

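The median difference of the members was below 0 in 12 of 12 alternative settings, from -0.94 to -0.10, beside -0.36 as reported. Pseudocount, gene length, lack of a filter and removal of Fdps could not turn that sign, whereas scalings and the minimum FPKM of 5 could. The number of members at least 2-fold different, 1 as reported, was 3 with a pseudocount of 0.1, 0 with a pseudocount of 5, 3 with each library scaled to an equal FPKM sum, 2 when all recovered reads set the library size and 0 of 4 with a minimum FPKM of 5. It was 2 with the aGVHD_V library alone scaled to the sum of BMT and 2 with the length of the longest coding transcript, both chosen after seeing the data. Idi1 was at least 2-fold lower in 10 of its 11 settings, and Fdft1 was above 0 in 12 of 12 (0.28 to 0.91). Pseudocount, gene length, filter and removal of Fdps cannot turn the sign of a single gene, so only the scalings could do so for Fdft1. Filter and removal of Fdps also leave the value of a kept gene, such as Idi1, as it is. The equal sum moved the median of all measured genes by -0.62, to -0.69, beside which the members' -0.94 should be read. Scaling of the aGVHD_V library alone moved it by -0.51, recovered reads by -0.23, leaving out hemoglobin, mitochondrial and ribosomal protein genes by -0.16, and the minimum FPKM of 5 by 0.11. Lower genes made up 69.2% of all genes outside 2-fold as reported, 86.3% with the equal sum, 87.1% with the aGVHD_V library alone scaled, 58.6% with a pseudocount of 5 and 58.2% with a minimum FPKM of 5. Of the remaining 168 values of single members and other lists, 5 moved beyond their interval, 4 of them those of Fdps. That interval is the widened one on the log2(FPKM + 1) scale, with the BMT level held fixed. The lower bound of Fdps is its reported value of -0.41, so any lower value counted as moved. 4 of the 8 members, Hmgcs1, Idi1, Lss and Fdps, were under the limit of 3 counts in aGVHD_V, so depth limits what can be said of them. No paired analysis was possible because each group has 1 library.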

Other observations

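Processed pseudogenes that share 50-base stretches with the members had few reads in either library. Gm3571 and Gm5873, which share 534 and 243 stretches with the longest coding transcript of Fdps, had 15 and 24 reads in BMT and 9 and 8 in aGVHD_V. Gm13502, which shares 635 stretches with Idi1, had 8 reads, all of them in BMT. Cyp51 overlaps Akap9, a scaffold gene on the opposite strand with 466 and 486 reads, over 166 bases, or 3.76% of its exon bases.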
